A study of Mus musculus with 3 samples.

Results

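Replication-dependent histone genes code for the linker histone H1 and the core histones H2A, H2B, H3 and H4 that package newly copied DNA. They were taken as every gene with a symbol beginning Hist1h, Hist2h, Hist3h or Hist4h and at least 1 transcript annotated as protein coding. This gave 67 of 55536 measured genes. A further 3 genes of the same naming, annotated as pseudogenes, were left out of the 70 that matched by name. The cells were bone marrow-derived macrophages of C57BL/6J mice, primary phagocytes grown from marrow, stimulated with Lipid A at 100 ng/ml for 25 min. Lipid A, the membrane anchor of lipopolysaccharide, is sensed by macrophages through TLR4. RNA of the chromatin fraction, depleted of ribosomal RNA, was sequenced in 3 libraries that form 1 group. The libraries were labelled biological replicates 1, 2 and 3 and started from 1000, 250 and 500 ng of RNA. The labels give them 1 common donor entry and do not say whether they came from separate cultures or animals, so p-values measure only the spread between these samples, which may be technical. There is no unstimulated group here, so levels describe stimulated cells and show no response to Lipid A.

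Most replication-dependent histone mRNAs have no introns and no poly(A) tail. Their 3′ end is a short stem-loop that the stem-loop binding protein (Slbp) holds and that the U7 ribonucleoprotein uses to place the cut. The genes lie in a few dense clusters, are transcribed together as DNA is copied in S phase, and their mRNAs are degraded when copying ends. Replacement histones, such as the H3 made from H3f3a and H3f3b, come from single genes with ordinary polyadenylated mRNAs and are made throughout the cell cycle.

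The stem-loop was searched for as 16 letters (GG, any 2 bases, CT, any base, T, any 2 bases, AG, any 2 bases, CC) on the transcript strand of GENCODE M21 (assembly mm10) transcripts. It was found in 44 of the 67 genes (65.7%), against 2.16% of the 21901 protein-coding genes searched. A gene without a match only lacks these letters in its annotated transcripts, and these genes had a median annotated length of 411 nt. The windows below show 1 gene for each spelling and 2 further genes of the commonest one, with the stem-loop in capitals and the flanking bases in lower case. They are shown because the spelling divided H4 from the other classes.

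Hist2h2ac: caaaaaGGCTCTTTTTAGAGCCaccaaatc

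Hist3h2a: accaaaGGCTCTTTTCAGAGCCacccacaa

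Hist1h1c: ccaaaaGGCTCTTTTCAGAGCCaccactcc

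Hist1h2bg: cccaaaGGCTCTTTTCAGAGCCacccatac

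Hist1h3e: caaaacGGCTCTTTTAAGAGCCacctccat

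Hist1h4m: actaaaGGCCCTTTTCAGGGCCatc

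Hist1h4i: cttaaaGGCCCTTTTTAGGGCCaccacaaa

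Hist1h4b: acaaaaGGTCCTTTTCAGGACCactcactg

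The spelling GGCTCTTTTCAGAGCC was carried by 26 genes, of which 3 were H1, 10 H2A, 8 H2B, 5 H3 and 0 H4. The related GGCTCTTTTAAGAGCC was found in 6 genes and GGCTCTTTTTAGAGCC in Hist2h2ac alone among the 67. All 11 H4 genes with a match had a different stem, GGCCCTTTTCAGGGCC in 7, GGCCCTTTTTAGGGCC in 2 and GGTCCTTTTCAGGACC in 2.

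The sequences before the start sites also divided by class. RefSeq promoters of the GRCm38.p6 build (250 bases before to 50 after the start) matched 62 of the 67 genes. On either strand, CCAAT was found in all 6 H1, all 18 H2A, all 16 H2B and all 10 H3 genes matched, but in 3 of 12 H4 genes. Among all 32851 promoters of the same length the share was 37.4%. The octamer ATTTGCAT, known as the binding motif of the POU factor that Pou2f1 encodes, was found in 7 of 18 H2A and 7 of 16 H2B genes and in no H1, H3 or H4 gene, against 1.74% of all promoters. TATAAA was found in 35 of the 62 genes (56.5%), against 13.6% of all promoters. None of the 3 motifs contains another. Where an H2A and an H2B gene lie head to head, their promoters overlap, and the same site can be counted for both. The octamer of Hist1h2ae and Hist1h2bg is such a site, so the H2A and H2B counts are not independent. The 250 bases before the start of Hist2h2ac (chr3:96220881-96221130, minus strand) and of Hist1h4m (chr13:21811496-21811745, plus strand) are given because these genes had the highest level of any H2A and any H4 gene. Capitals mark matches to the 3 motifs on either strand.

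Hist2h2ac: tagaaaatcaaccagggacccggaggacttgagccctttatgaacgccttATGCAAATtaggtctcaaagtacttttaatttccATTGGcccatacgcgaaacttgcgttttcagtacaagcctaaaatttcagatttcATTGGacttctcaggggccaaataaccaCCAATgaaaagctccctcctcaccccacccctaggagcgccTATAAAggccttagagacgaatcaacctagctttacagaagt

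Hist1h4m: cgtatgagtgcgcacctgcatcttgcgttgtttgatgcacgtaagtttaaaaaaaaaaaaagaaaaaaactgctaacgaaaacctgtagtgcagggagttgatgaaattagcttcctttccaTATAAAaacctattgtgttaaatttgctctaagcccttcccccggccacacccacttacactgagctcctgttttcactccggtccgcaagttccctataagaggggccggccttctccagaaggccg

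The Hist2h2ac sequence holds 1 octamer, 3 CCAAT letters and 1 TATAAA that begins 42 bases before the start, and it spans the whole interval to the divergent gene Hist2h2be. The Hist1h4m sequence holds a single TATAAA, 128 bases before the start, and neither of the other motifs.

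The libraries held 13318787, 19162053 and 19147923 expected counts over genes in replicates 1, 2 and 3, where an expected count is a read count that RSEM has shared out among genes a read could come from. A count of 0 allows up to 3 counts, or 0.225, 0.157 and 0.157 CPM, counts scaled to the library total, and such limits cover counting error only. All 8 macrophage markers examined, Csf1r and Cd68 among them, were at 1 TPM or more, with a median of 154 TPM. None of 18 markers of T cells, B cells, neutrophils, erythroid cells, fibroblasts or endothelial cells reached a mean of 1 TPM. Their summed level was 2.05, 4.65 and 3.88 TPM in replicates 1, 2 and 3, and 6 of them had no counts, including Cd3e. The ribosomal DNA locus genes took 8.59%, 27.2% and 23.2% of counts.

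Histone genes made up a very small part of the chromatin-bound RNA. The 67 genes together held 797, 1291 and 1289 expected counts in replicates 1, 2 and 3, or 59.8, 67.4 and 67.3 CPM. Levels per length are given as TPM, the count over the effective gene length, scaled as a share of all genes whose mean length was 300 nt or more. On that scale the summed level was 187, 303 and 242 TPM. Levels come from the RSEM table unless the second deposited quantification, called kallisto-type after its column names, is named. The mean over libraries reached 1 TPM in 45 of the 67 genes, and the background share among 21898 protein-coding genes was 50.5%. Only 14 genes reached 5 TPM and 5 reached 10 TPM. The median gene stood at 2.20 TPM, against 1.09 TPM for protein-coding genes, and by library the median was 1.21, 2.90 and 1.98 TPM. Counts behind these levels were low: 39 genes had fewer than 30 counts over the 3 libraries together, and 47 had counts in every library. No RSEM count was assigned to Hist2h3c1, Hist1h2ah, Hist1h3b, Hist1h2ba or Hist1h2aa, and the kallisto-type table gave counts to 1 of these, Hist1h2ah (0.393 TPM).

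**Figure D1:**
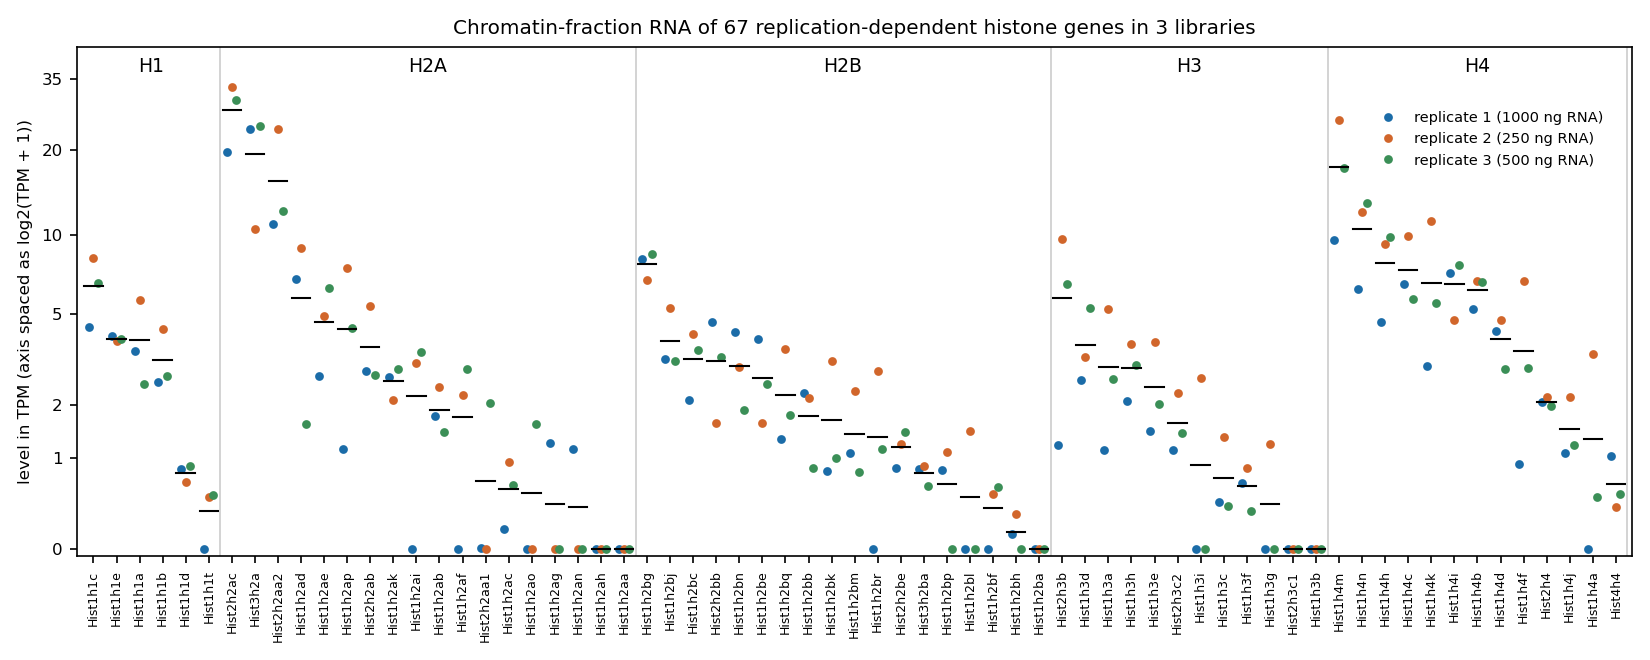
Level of each of the 67 genes in TPM (y axis spaced as log2(TPM + 1)) by class and, within a class, by mean; points are the 3 libraries and black bars their mean. Hist2h2ac has the highest mean on this scale at 27.4 TPM, and 22 of the 67 genes have means below 1 TPM.

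Per length, H4 was the class with the highest typical level, but by mean CPM, without length, the median H1 gene was above the median H4 gene. The median H4 gene stood at 4.25, 6.70 and 5.52 TPM in replicates 1, 2 and 3, above the median of every other class in each library. The same held with the kallisto-type TPM, where the H4 medians were 2.77, 3.02 and 2.86 TPM. The H1 median was next in each library of the RSEM table (3.06, 4.14 and 2.63 TPM), but below that of H2A in replicates 2 and 3 of the kallisto-type table. Medians of the other classes changed order between libraries: H2A had 1.19, 2.35 and 2.40 TPM, H3 had 0.892, 2.49 and 0.906 TPM and H2B had 0.969, 1.90 and 1.07 TPM. In summed level the H2A genes came first with 38.04% ± 3.09 (SD, n = 3) of the total, followed by H4 with 30.5% ± 2.57, H2B with 15.1% ± 2.96, H3 with 8.67% ± 2.80 and H1 with 7.68% ± 0.578. The order of H2A, H4 and H2B was the same in each library, while H3 was above H1 in replicates 2 and 3 and below it in replicate 1. By counts, without length, the shares were 41.6% for H2A, 18.5% for H4, 17.5% for H1, 14.96% for H2B and 7.46% for H3. The first place of H2A in the RSEM table rested on Hist3h2a, which shares exons with another gene. Hist3h2a held 12.6%, 3.47% and 9.96% of the summed TPM in replicates 1, 2 and 3. Without it, H2A would stand below H4 in each library, both by summed TPM and by counts. In the kallisto-type table the H2A sum would stay above that of H4 without Hist3h2a.

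**Figure D2:**
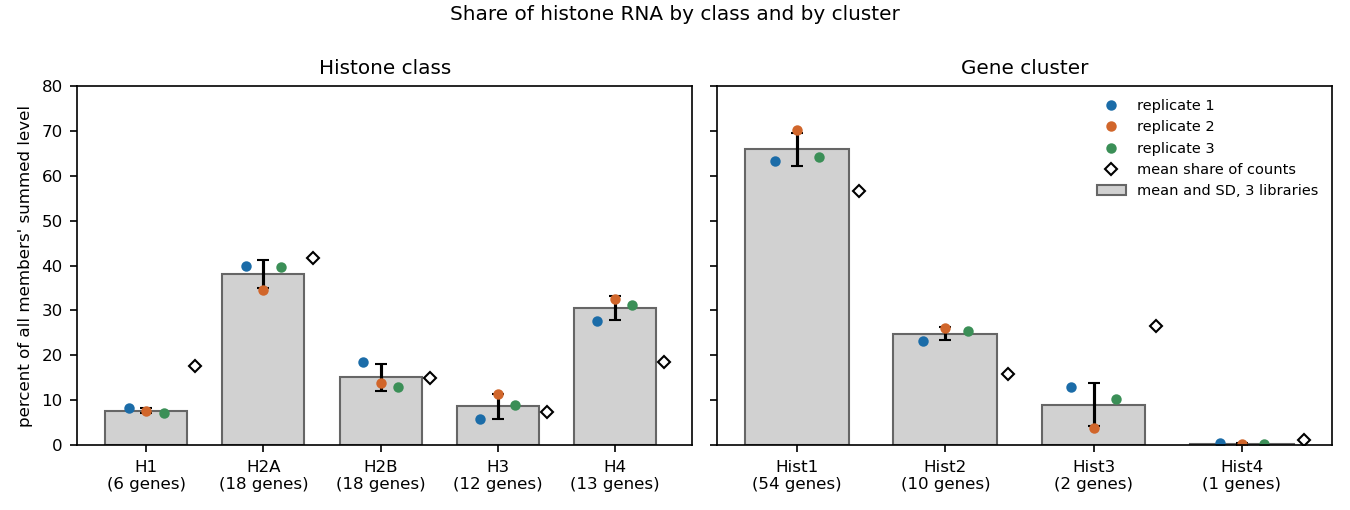
Percent of the members' summed TPM by histone class (left) and gene cluster (right); bars and error bars are the mean and SD of 3 libraries, points the libraries, and diamonds the mean share of expected counts. H2A (38.04%) and H4 (30.5%) hold the largest shares, and the Hist3 cluster holds 9.00% of TPM but 26.4% of counts.

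H1 binds the linker DNA between nucleosomes. Hist1h1c was the highest of the 6 H1 genes, with 4.46, 8.18 and 6.59 TPM in replicates 1, 2 and 3. Hist1h1e had 4.07, 3.91 and 3.96 TPM, a mean of 3.98 ± 0.0807 (SD, n = 3). The Hist1h1c and Hist1h1e levels lay close together in replicate 1 and were apart in the other libraries. Hist1h1a (3.92 ± 1.63 TPM) and Hist1h1b (3.22 ± 0.995 TPM) could not be ordered against Hist1h1e beyond their spread. Hist1h1d, whose annotated transcript of 7425 nt is the longest among the members, had 35, 44 and 55 counts but only 0.793 ± 0.112 TPM. The lowest was Hist1h1t, the testis form of H1, with 0, 0.489 and 0.512 TPM on 0, 3 and 3 counts.

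H2A genes held both the highest level and the largest count. Hist2h2ac, on chromosome 3 (mm10, chr3:96220361-96220880, minus strand, 1 exon), had 36, 83.4 and 73 counts and 19.7, 32.9 and 29.8 TPM in replicates 1, 2 and 3. It had rank 1 of the 67 in replicates 2 and 3 and rank 2 in replicate 1. Hist3h2a, on chromosome 11 (chr11:58954685-58956830, plus strand), had 265, 184 and 401 counts and 23.6, 10.5 and 24.1 TPM. It had rank 1 in replicate 1, rank 2 in replicate 3 and rank 6 in replicate 2, so the order of the 2 genes differed between libraries. Their order also depends on length. With full in place of effective gene length, the means were 21.6 TPM for Hist3h2a and 19.1 TPM for Hist2h2ac. By CPM the means were 16.8 and 3.62. Hist3h2a held 33.2%, 14.3% and 31.1% of all counts on the 67 genes. Its annotated transcript runs 1643 nt beyond the stem-loop, and 33.0% of its exonic bases lie on the same strand as exons of Trim17, a ubiquitin ligase gene that begins at the same base and had 186, 136 and 249 counts. Counts on Hist3h2a and Trim17 moved in the same order over the libraries, and how reads were split between them was not tested.

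Hist2h2aa2 (chr3:96239749-96240276, minus strand) had 10.9, 23.6 and 12.1 TPM and was highest in replicate 2. Its near-identical copy Hist2h2aa1 was given 0.00906, 0 and 2.04 TPM. Their sum was 16.2 ± 6.56 TPM. No 50-base stretch of either transcript was unique, and the noncoding Gm20634 covers 90.3% of the exonic bases of Hist2h2aa1 on the same strand, so neither the single levels nor the sum are certain. In the kallisto-type table Hist2h2aa2 had 6.998 ± 3.03 TPM. In the same cluster, Hist2h2ab had 2.87, 5.37 and 2.76 TPM on 4 to 10 counts. In the kallisto-type table Hist2h2ab had 6.92 ± 2.14 TPM and rank 4 in the class, against rank 7 by RSEM. Among the Hist1 genes of this class, Hist1h2ad was highest with 6.82, 8.94 and 1.60 TPM, with replicate 3 well below the others. The size of that drop depends on the table, since the kallisto-type table gave 6.43, 4.70 and 3.70 TPM. Only 32.9% of the 50-base stretches of Hist1h2ad are unique, and how reads were split between copies was not tested. The lowest H2A gene with any RSEM count was Hist1h2an, with 1.15 TPM in replicate 1 and 0 in the others. Hist1h2aa, the testis form, had no count in any library, as did its H2B partner Hist1h2ba.

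No H2B gene reached the mean level of Hist2h2ac or Hist3h2a in either table. Hist1h2bg led with 8.13, 6.77 and 8.49 TPM, a narrow range of 7.80 ± 0.910 TPM. It also led in the kallisto-type table, at 9.02 ± 1.74 TPM. Hist1h2bj followed at 3.91 ± 1.18 TPM, but had rank 7 in the class in the kallisto-type table. Outside the Hist1 cluster, Hist2h2bb had 4.67, 1.61 and 3.31 TPM on fewer than 5 counts a library, and Hist2h2be had 0.857, 1.24 and 1.44 TPM on 12, 27 and 30 counts. Their order depends on the quantification, since the kallisto-type table gave 1.24 TPM to Hist2h2bb and 2.37 TPM to Hist2h2be. No 50-base stretch of Hist2h2bb is unique and the antisense gene Gm20628 covers all of its exonic bases, while all stretches of Hist2h2be are unique. The lowest with any RSEM count was Hist1h2bh, with 0.124, 0.303 and 0 TPM, but it had 1.20 ± 0.264 TPM in the kallisto-type table and was not the lowest there.

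H3 genes had the fewest counts, 265 over 12 genes and 3 libraries. Hist2h3b had the highest mean, with 1.21, 9.66 and 6.52 TPM, and replicate 1 was far below the other libraries. Hist2h3c2 had 1.13, 2.28 and 1.43 TPM, in the same order over the libraries. With the uncounted Hist2h3c1 they form a group of near-identical copies that summed to 7.41 ± 4.82 TPM. The highest H3 gene of the Hist1 cluster was Hist1h3d with 3.75 ± 1.38 TPM. It was above Hist2h3b in replicate 1, in the means without replicate 2 (3.96 and 3.86 TPM) and in the kallisto-type table (2.67 and 2.21 TPM), and no 50-base stretch of Hist2h3b is unique, so which H3 gene leads is not settled. The lowest H3 gene with any count was Hist1h3g, with 1.22 TPM in replicate 2 alone.

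H4 genes were at 1 TPM or more in 12 of 13 cases, including 7 of the 12 highest genes of all. In the kallisto-type table these counts were 11 and 5. Hist1h4m (chr13:21811746-21812147, plus strand) had 9.57, 25.4 and 17.3 TPM. Hist1h4n (chr13:21831767-21832196, minus strand) had 6.29, 12.1 and 13.0 TPM. They are near-identical copies with 10.2% and 14.4% unique 50-base stretches, and their summed level was 15.9, 37.5 and 30.3 TPM. Hist1h4h had 4.66, 9.23 and 9.76 TPM, lowest in replicate 1. Hist1h4c had 6.54, 9.88 and 5.72 TPM, highest in replicate 2. Neighbours in this order did not differ beyond their spread. Hist1h4k had 3.04, 11.2 and 5.52 TPM on only 2 to 9 counts. Hist1h4i had 7.18, 4.74 and 7.69 TPM, and Hist1h4b had 5.22, 6.70 and 6.66 TPM. Hist2h4, 98.99% unique, had an even 2.06, 2.20 and 1.98 TPM. Hist4h4, alone on chromosome 6, was the lowest H4 gene of the RSEM table with 1.04, 0.373 and 0.524 TPM. In the kallisto-type table it had 3.13 ± 0.741 TPM and rank 7 of the 13, although 91.5% of its 50-base stretches are unique.

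By position, the 54 genes of the Hist1 cluster on chromosome 13 held 65.9% ± 3.73 (SD, n = 3) of the summed TPM. The 10 genes of the Hist2 cluster on chromosome 3 held 24.8% ± 1.47. The 2 genes of Hist3 on chromosome 11 held 9.00% ± 4.75, nearly all from Hist3h2a. The median gene of Hist2, at 2.64 TPM, was close to that of Hist1, at 2.22 TPM.

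In the clusters, H2A and H2B genes often lie head to head with a short shared interval. There were 12 such pairs, with start sites 176 to 306 nt apart. Hist2h2ac stood at 27.4 ± 6.88 TPM and its partner Hist2h2be, 239 nt away, at 1.18 ± 0.298 TPM, a 23.3-fold difference in the means with no overlap between libraries. The kallisto-type table gave 24.05 and 2.37 TPM, a 10.2-fold difference, again with Hist2h2ac higher per length in every library. Much of the fold comes from length, with mean effective lengths of 290 nt for Hist2h2ac and 2389 nt for Hist2h2be. By CPM, without length, their means were 3.62 and 1.29 by RSEM and 4.20 and 3.14 in the kallisto-type table. In replicate 1 of the kallisto-type table the CPM order was reversed, at 2.37 for Hist2h2ac and 3.925 for Hist2h2be. Hist1h2bc was higher than Hist1h2ac (3.27 and 0.581 TPM), and Hist1h2bj was higher than Hist1h2ag (3.91 and 0.412 TPM). These differences were 5.63-fold and 9.48-fold by RSEM and 6.28-fold and 14.2-fold in the kallisto-type table. Part of the fold between Hist1h2bc and Hist1h2ac comes from length, with mean effective lengths of 925 and 2251 nt. By CPM their means were 1.39 and 0.609 by RSEM and 1.46 and 0.556 in the kallisto-type table. Hist1h2bg was above Hist1h2ae in every library of both tables, by 1.68-fold in the RSEM means (7.80 and 4.64 TPM) and 2.70-fold in the kallisto-type means. For Hist1h2ad and Hist1h2bf, 185 nt apart, the size of the difference rests on the table: RSEM gave 5.78 ± 3.78 and 0.373 ± 0.325 TPM, the latter on 2.21 counts in all, and the means were 4.94 and 2.90 TPM in the kallisto-type table.

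By RSEM TPM the H2B gene was higher in 7 pairs and the H2A gene in 4, and by kallisto-type TPM in 6 and 5. The same partner had the higher mean in both tables in 10 of the 12 pairs, and was higher in every library of both in 5. Neither member of the testis pair Hist1h2aa and Hist1h2ba had counts. Many partners share sequence with other members, so their separate levels are uncertain.

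**Figure D3:**
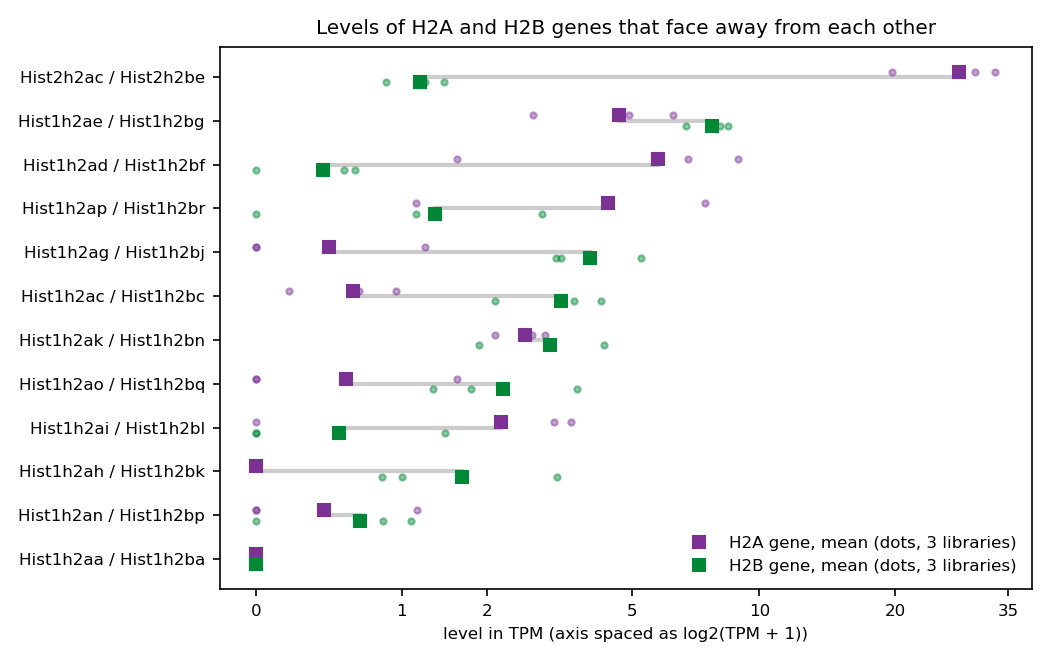
Level in TPM of the RSEM table (x axis spaced as log2(TPM + 1)) of the H2A and H2B gene of each of 12 head-to-head pairs; squares are means and dots the 3 libraries. Hist2h2ac and Hist2h2be lie 23.3-fold apart in the means, Hist1h2bg and Hist1h2ae 1.68-fold.

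By counts, but not per effective length, genes with long annotation beyond the stem-loop held most of the reads. The mature histone mRNA ends a few bases after the stem-loop, so sequence annotated beyond it belongs to longer forms. Of the 44 genes with a stem-loop, 22 had at least 100 nt annotated after it, and these held 2214 counts over the 3 libraries. The 22 genes with shorter annotation held 704 counts and the 23 without a match 460. Of the 2214 counts, 850 were on Hist3h2a, which shares exons with Trim17, and 1364 on the other genes. Per effective length the genes with long annotation came second in the means. They held 33.3% ± 8.46 (SD, n = 3) of the summed TPM, those with shorter annotation 46.6% ± 5.01 and those without a match 20.1% ± 3.50. In replicate 1 the shares with long and shorter annotation were close, at 41.05% and 41.7%. The median levels of the 3 groups were 2.26, 2.45 and 2.20 TPM. Per full annotated length the order followed the counts, with medians of 4.32, 3.02 and 2.58 counts per 100 nt. Gene tables do not show where along a transcript the reads lay, so counts before and after the stem-loop were not separated here.

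Among these genes, Hist1h2be was the only one with 2 or more transcripts and at least 50 counts. A noncoding processed transcript, Hist1h2be-203 (chr13:23618980-23621078, minus strand), took 82.6%, 62.3% and 85.0% of its counts, a mean of 76.6% ± 12.5 (SD, n = 3). This form was singled out after its values were seen. It overlaps the 3′ part of Hist1h1e on the same strand. The 2 coding forms of Hist1h2be together took the rest, so most counts on this symbol were not assigned to a coding histone mRNA.

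Shared sequence limited the values of single genes. The median gene had 45.9% of its 50-base stretches unique among annotated transcripts, 34 of 67 had less than 50% and 8 had at least 90%. The kallisto-type table held 1.55 to 1.74 times the RSEM counts over all genes, so counts were compared after scaling each table to its own total. The 67 genes together had 64.96, 64.4 and 68.0 CPM there, against 59.8, 67.4 and 67.3 CPM by RSEM. Single genes differed more. Of 33 genes with a mean of at least 10 counts in either table, 20 were within 1.5 times, 9 were higher by more than that in the kallisto-type table and 4 were lower. Hist4h4 had 4.55 ± 1.01 CPM there and 0.766 CPM by RSEM. Hist1h2bh had 0.973 and 0.0961 CPM, on 5.06 RSEM counts in all. Hist1h1d had 5.66 and 2.60 CPM, and Hist2h2be had 3.14 and 1.29 CPM, although at least 97.7% of the 50-base stretches of these 2 genes are unique. The 4 lower genes were Hist2h3b, Hist2h2aa2, Hist1h4m and Hist1h4c, at 0.516 to 0.628 times the RSEM CPM.

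Per length the tables differed more. The summed level was 145, 199 and 175 TPM in the kallisto-type table, below the RSEM sum in each library. The levels of 29 of the 67 genes moved by more than their SD between libraries, 19 of them downwards and 10 upwards. Hist3h2a went from 19.4 to 11.4 TPM, Hist1h4m from 17.4 to 7.24 TPM and Hist1h1c from 6.41 to 3.74 TPM, but each kept its rank in its class. Hist2h2ac, at 27.4 and 24.05 TPM, moved by less than its SD. The highest gene was the same in both tables in 4 of the 5 classes, all but H3. Which table is nearer to the true levels was not tested.

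**Figure D4:**
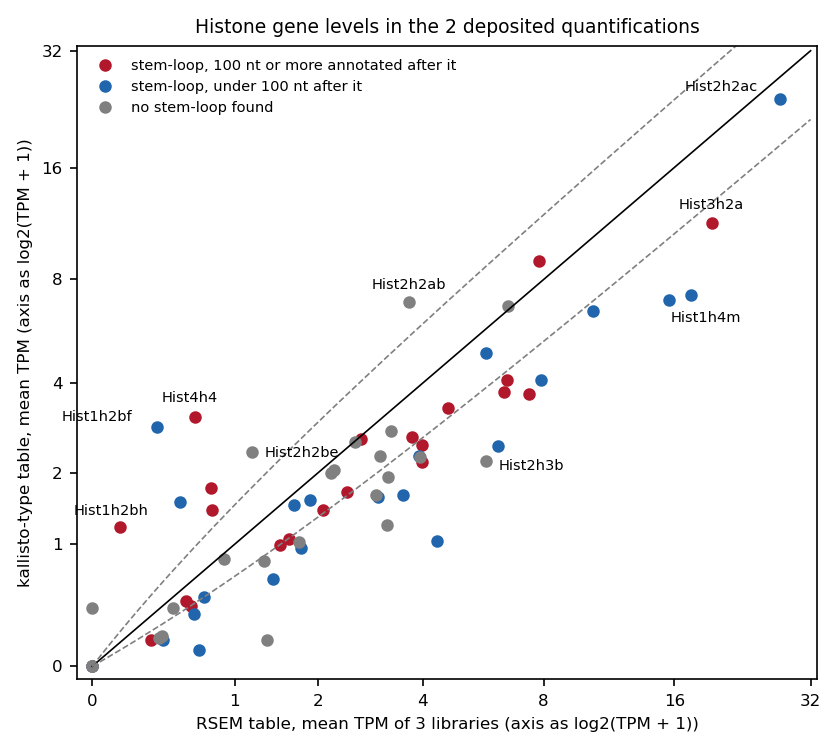
Mean level over 3 libraries of the 67 genes in the RSEM table (x axis) and the kallisto-type table (y axis), both in TPM spaced as log2(TPM + 1); the solid line marks equal values, the dashed lines a factor of 1.5, and colours the length annotated after the stem-loop. Hist2h2ac is the highest in both (27.4 and 24.05 TPM), while Hist4h4 (0.645 and 3.13 TPM) lies far above the line of equal values.

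The amount of RNA was the only labelled difference between libraries, and each amount was 1 library, so that amount and any other difference between libraries cannot be told apart. The change per doubling of RNA amount was fitted over all 15077 genes that passed a count filter, with edgeR's quasi-likelihood test and Benjamini-Hochberg adjustment. Only 29 of the 67 genes passed the filter. None of the 29 was called at an adjusted p under 0.05 by edgeR, while 4.38% of all genes were, 2.98% higher and 1.41% lower with more RNA. At an unadjusted p under 0.05, 7 of the 29 passed, all lower with more RNA, against 21.5% of all genes tested. DESeq2 called none either, but it set an adjusted p for only 1 of the genes, and at its unadjusted p none of 62 passed.

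The direction was mostly towards less histone RNA with more input: 25 of the 29 slopes were below 0, with a median log2 change of -0.48 per doubling. Among all genes tested, 51.6% were below 0 and the median was -0.01. Hist2h3b had the lowest slope, -1.30 ± 0.45 (SE), on 1.98, 21.7 and 14.2 counts, with an edgeR adjusted p of 0.1001. Hist1h2ac had a slope of -1.28 ± 0.45 on 2.21, 19.5 and 12.3 counts, with an edgeR adjusted p of 0.109. Both had their lowest CPM in replicate 1. Leaving out a replicate moved the slope of Hist2h3b between -2.44 and -0.70 and that of Hist1h2ac between -2.21 and -0.78. Hist3h2a (0.39 ± 0.20), Hist1h2be (0.42 ± 0.26) and Hist4h4 (0.55 ± 0.38) had slopes above 0, with edgeR adjusted p values of 0.280, 0.374 and 0.432. The slope of Hist3h2a rests on single libraries, at 1.07 without replicate 1 and -0.29 without replicate 2. Without Hist3h2a the summed level of the members was 39.9, 57.8 and 46.4 CPM in replicates 1, 2 and 3. Of the 62 genes with counts, 38 had their highest CPM in replicate 2, the library from 250 ng. The same share over all genes was not counted, so it cannot be told whether this is particular to histone genes. Leaving out replicate 1 moved the median slope to -0.27 and leaving out replicate 2 to -0.34, neither with a test. The slopes below 0 then numbered 18 and 23 of 29, and 7 and 6 slopes changed sign. In bulk RNA of this kind, fewer cells of a type and less RNA per cell cannot be told apart. The share of the ribosomal DNA locus genes differed between the same libraries. With the ribosomal DNA locus genes left out of the fit, 24 of 28 histone slopes were below 0 and 0 changed sign. The median slope was then -0.47. Beyond this omission, the part of the ribosomal share in these slopes was not tested. Of the markers of other cell types, 3 had enough counts, and 2 of them had slopes below 0. Col1a1 (0, 25 and 30 counts, slope -1.31) and Col1a2 (0, 17 and 17 counts, slope -1.35) passed an unadjusted edgeR p under 0.05. The edgeR adjusted p values of Col1a1 and Col1a2 were 0.183 and 0.180. Pecam1 went the other way (21, 15 and 7 counts, slope 0.40) and did not pass the unadjusted p. Of the 8 macrophage markers, 2 passed the unadjusted p, 1 in each direction, against 21.5% of all genes tested. The part of these cells in the histone slopes was not tested.

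**Figure D5:**
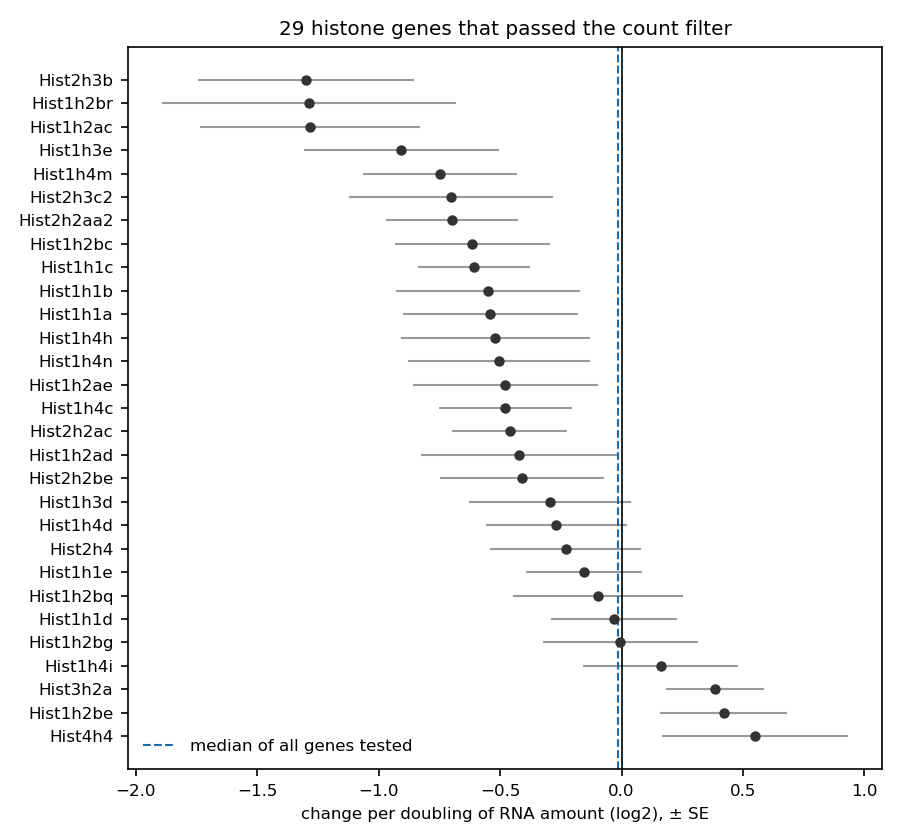
Log2 change per doubling of RNA amount with its SE for the 29 histone genes that passed the count filter; the dashed line is the median of all genes tested. Points to the left of 0 (25 of 29) are lower with more RNA, and none passed the adjusted threshold of 0.05.

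Genes of DNA replication also had slopes mostly below 0 (23 of 24, against 51.6% of all genes tested). Of 24 S phase replication genes tested, 5 were called lower with more RNA by edgeR and 0 higher, with a median slope of -0.44. Of all genes tested, 1.41% were called lower and 2.98% higher. At an unadjusted edgeR p under 0.05, 12 of the 24 passed, all lower, against 21.5% of all genes tested. The called genes were Cdt1 (slope -0.91 ± 0.21) and Mcm7 (-0.82 ± 0.21), which license and unwind origins, Pole (-0.83 ± 0.19) and Pold1 (-0.75 ± 0.18), catalytic subunits of the replicative polymerases, and Lig1 (-0.81 ± 0.19), the ligase that joins lagging-strand fragments. Their edgeR adjusted p values ran from 0.0155 for Pole to 0.0310 for Mcm7. The highest of the list were Tk1 (99.6 ± 27.5 TPM), Pcna (56.99 ± 19.0 TPM) and Pola1 (24.3 ± 1.28 TPM), and the lowest was Fen1 with 0.384 ± 0.375 TPM. The list had a median of 5.70 TPM. Whether the histone and replication slopes share a source was not tested.

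By median level per length, the genes that make and trim histone mRNA stood above the histone genes. Single genes of the list did not all do so, and Lsm11 and Zfp473 lay below the histone median. The list of histone mRNA transcription and 3′ end processing had a median of 12.4 TPM over 16 genes of at least 300 nt, with 15 at 1 TPM or more. Srrt, a partner of the cap-binding complex, had 227, 265 and 335 TPM. Sympk and Cpsf3, the scaffold and the nuclease of the cleavage factor, had 54.2 ± 6.56 and 43.1 ± 7.41 TPM. The lowest was Lsm11, a protein of the U7 particle, at 0.857 ± 0.155 TPM. The U7 RNA gene Rnu7 is shorter than 300 nt and had no counts. Of the histone decay genes, all 7 measured were at 1 TPM or more, led by the uridylyltransferases Tut7 (299 ± 73.3 TPM) and Tut4 (192 ± 34.97 TPM) and the exonuclease Xrn1 (111 ± 31.7 TPM), with Lsm1 lowest at 2.25 ± 0.313 TPM. The 6 genes of cyclin E and E2F control had a median of 5.99 TPM, from Cdk2 at 18.6 ± 1.47 TPM, E2f3 at 7.25 ± 0.664 TPM and E2f1 at 6.55 ± 1.04 TPM down to E2f2 at 1.90 ± 0.263 TPM. No gene of these 3 lists was called with RNA amount by edgeR, while 4.38% of all genes tested were. At an unadjusted edgeR p under 0.05 the counts were 3 of 16, 2 of 7 and 2 of 6, against 21.5% of all genes tested.

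Replacement H3 far exceeded replication-dependent H3. H3f3b had 798, 640 and 767 TPM and was the highest of the 11 replication-independent histone genes, followed by Cenpa (216 ± 54.7 TPM), the centromeric H3, and H2afy (159 ± 9.16 TPM), which codes for macroH2A. H1fx had no counts. The summed level of H3f3a and H3f3b was 885, 683 and 799 TPM, against 10.7, 34.3 and 21.7 TPM for the 12 replication-dependent H3 genes. The ratios were 82.5, 19.9 and 36.8. For H2A the order depends on macroH2A. The replacement genes H2afz, H2afv, H2afx, H2afj, H2afy and H2afy2 together had 2.57, 1.73 and 2.14 times the summed level of the 18 H2A genes, and 0.426, 0.257 and 0.350 times without the macroH2A genes H2afy and H2afy2. The H1 replacement genes H1f0 and H1fx together had 0.0723, 0.0850 and 0.118 times the level of the 6 H1 genes. The 17 histone chaperones, which carry histones to DNA, had a median of 35.96 TPM, led by Atrx (588 ± 134 TPM), Ubn1 (109 ± 7.96 TPM) and Cabin1 (92.9 ± 12.3 TPM), with Asf1b lowest at 0.427 ± 0.561 TPM. No chaperone or replacement histone gene was called with RNA amount by edgeR, while 4.38% of all genes tested were. At an unadjusted edgeR p under 0.05 the counts were 6 of 16 and 1 of 10, against 21.5% of all genes tested.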

How the data were processed

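Chromatin-fraction RNA was measured in 3 libraries of 1 group. The group, stimulus, replicate number and RNA amount come from the labels. The authors deposited, per the file headers, RSEM gene and transcript tables with expected counts and TPM, and a transcript table with estimated counts and TPM under kallisto's column names. They refer to mm10 and GENCODE M21, per the deposited readme files; aligner, versions, strand setting and read filters: not given in the sources used here. Each of the 55536 genes was found in GENCODE M21.

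Levels were recomputed from expected counts over effective length, scaled to TPM over genes of at least 300 nt, because the deposited TPM also cover short entries. Values are mean ± SD, and levels were not tested. Depth was 13318787 to 19162053 counts. Spike-in, tRNA and other entries held 0.308% to 1.53% of all counts and were left out. Expected counts, rounded to integers, were regressed on log2 RNA amount in edgeR 4.0.16 under R 4.3.3 (TMM, filterByExpr with the design, quasi-likelihood test) with 1 residual degree of freedom, so each gene's spread rests largely on the other genes. The fit was tested on simulated data. Alternatives were RLE factors, no count filter, DESeq2 1.42.0, the kallisto-type table, omission of ribosomal DNA locus genes, full gene length, deposited TPM, CPM and leaving out each replicate. Their use for the median slope, leaving out genes that overlap another on the same strand, kallisto-type values for class medians, ranks and pairs, and the sum with macroH2A were added after seeing the data.

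Members, lists and tests were chosen with earlier results of these data known. Every member could be named. Values by library were given for the 12 highest, the highest and lowest of each class, genes outside Hist1 at 1 TPM or more and testis forms, and of each list the 3 highest, the lowest and any called (at most 3 each way, except that all 5 called S phase genes are named). Zcchc11 and Zcchc6 are older names of Tut4 and Tut7. Python 3.11.15, numpy 2.4.6, pandas 2.3.3 and matplotlib 3.10.9 were used.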

Additional observations from a re-analysis of the deposited data

Results flagged for a closer look

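Hist3h2bb-ps, a processed pseudogene that was left out of the members, had 8 counts in replicate 1 and 6 in replicate 2, above the 3 counts that a count of 0 allows. It had 3 counts in replicate 3. The other pseudogenes of the same naming, Hist1h2aj and Hist1h2al, had no counts in any library.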

How the results depend on the processing

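No member was called with RNA amount by edgeR or DESeq2 under any alternative that gave a test (RLE factors, no count filter, DESeq2, kallisto-type counts, omission of the ribosomal DNA locus genes), while 354 to 1181 genes of all were called, against 661. The median slope stayed below 0, from -0.48 to -0.27; with kallisto-type counts it was -0.28 over members tested in both fits and -0.18 over the 35 members tested there. Leave-one-out fits have no residual degrees of freedom. No paired analysis was possible because all libraries belong to 1 group.

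Of members at 1 TPM or more, 29 remained by count with the deposited TPM and 17 with CPM, against 45; leaving out a replicate gave 42 to 47, and leaving out members that overlap another gene on the same strand gave 41. The median member level was 0.827 with the deposited TPM, which is scaled over more entries, against 2.20, and 1.74 to 2.45 TPM without a replicate. As a share of counts, H1 held 17.5%, H2A 41.6%, H4 18.5%, Hist1 56.6%, Hist2 15.8%, Hist3 26.4% and Hist4 1.21%. With full gene length, H1 held 10.1%, H4 26.6% and Hist2 23.2%, and Hist3h2a had the highest mean level (21.6 TPM, against 19.1 TPM for Hist2h2ac). With kallisto-type TPM, H1 held 6.77%, H2B 20.3%, H4 26.3% and Hist4 1.84%. Levels of single members moved by more than their SD in 29 of 67 with kallisto-type TPM, 38 with the deposited TPM and 15 with full gene length. Of the 29 slopes, 16, 17 and 1 moved by more than their SE without replicates 1, 2 and 3. Apart from the length scaling itself, the cause was not tested. Without a replicate, no level of a single member and no class, cluster or transcript share moved by more than its SD. With 3 libraries, leaving out any of them cannot move a mean by more than the SD. That outcome was therefore fixed in advance and shows nothing about stability. Depth limits most members: 39 of 67 have under 30 counts in all.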

Other observations

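Noncoding genes annotated over the Hist2 cluster on chromosome 3 had counts of their own in most cases, above those of the histone genes they overlap for Gm20634, Gm20633 and Gm20628. Gm20634, a processed transcript on the same strand that covers all exonic bases of Hist2h3c1 and 90.3% of those of Hist2h2aa1, had 34.3, 75.3 and 102 counts in replicates 1, 2 and 3, while Hist2h3c1 had none and Hist2h2aa1 at most 6.17. The antisense genes Gm20632 (37.8, 31.3 and 44.8 counts), Gm20633 (43.5, 50.7 and 35.2 counts) and Gm20628 (31.9, 37.95 and 18.8 counts) cover Hist2h2aa2, Hist2h2aa1, and Hist2h2bb with Hist2h3b. Gm15444, antisense over Hist2h2ab, had none. Hist2h2aa2 had 20.4, 61.5 and 30.6 counts beside those of Gm20632. The sources used here do not state whether strand was used in counting, so reads of a gene and its antisense partner may not be separated.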
